A study of Arabidopsis thaliana with 6 samples.

Results

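The 9 nuclear genes for the major light-harvesting complex of photosystem II (LHCII) were followed in seedlings of the Arabidopsis thaliana *flu* mutant. They were taken by their gene identifiers as 5 LHCB1 genes, 3 LHCB2 genes and the single LHCB3 gene. All 9 were among the 11167 genes of the count table and all 9 were among the 10622 genes tested, with between 158 and 51855 reads per gene and library, so none depended on the filter on low counts. Both groups were whole 2-week-old seedlings of *flu* 1-1 in the Col-0 ecotype, grown on sucrose-containing medium and placed in water. The 0 h group (n = 3 libraries) had no dark incubation and the 4 h group (n = 3 libraries) had 4 h of darkness, and both were then given 30 min of light at 30 µE by the wording of the protocol. FLU holds back the synthesis of chlorophyll precursors, and seedlings without it accumulate protochlorophyllide in darkness, which produces singlet oxygen when light returns. Reads came from bulk MARS-seq, a method that sequences the 3′ ends of transcripts.

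LHCII is the most abundant membrane protein complex of the chloroplast. It forms trimers of LHCB1, LHCB2 and LHCB3 that bind chlorophylls a and b and pass light energy to photosystem II. LHCB1 and LHCB2 are phosphorylated near their N-terminus when the antenna is shared with photosystem I, whereas LHCB3 lacks that site and is found in a moderately bound kind of trimer. The proteins are made in the cytosol from nuclear genes, which are known to respond to light, the circadian clock and signals from the plastid.

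Transcripts of LHCB2 and LHCB3 fell after 4 h of darkness followed by light, and transcripts of LHCB1 as a whole did not pass the test. Summed over its 3 genes, LHCB2 fell 2.74-fold, and LHCB3 fell 2.54-fold. Within LHCB1, the neighbouring genes LHCB1.1 and LHCB1.2 fell by 1.82-fold and 1.57-fold, while LHCB1.3, LHCB1.4 and LHCB1.5, which held most LHCB1 reads, did not pass the test. In all, 6 of the 9 genes were lower and none was higher at an edgeR adjusted p under 0.05, against 8.18% of all genes tested that were called lower, 8.37% called higher and 16.6% called in either direction. In the table with summed subunits 8.15% of rows were called lower. Over the 9 genes the median log2 fold change (4 h over 0 h) was -0.86, and over all genes tested it was -0.06. In 7 of the 9 genes every 4 h library lay below every 0 h library, which 16.9% of all genes tested showed.

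**Figure D1:**
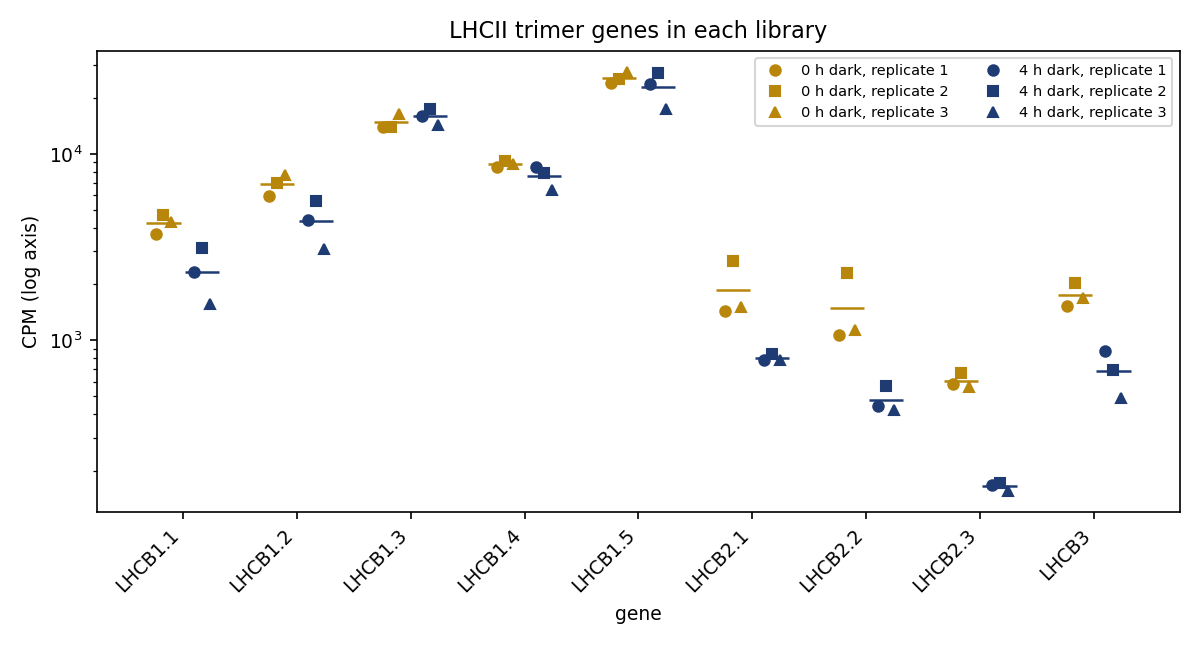
CPM (reads of a gene relative to the TMM-scaled size of its library, log axis) of the 9 LHCII genes in each library, with 0 h in gold, 4 h in blue, 1 symbol per replicate and a line at the group mean. The LHCB2 and LHCB3 points of the groups are apart, whereas those of LHCB1.3 and LHCB1.5 overlap.

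The libraries held between 1012425 and 2185464 reads, and 3 reads corresponded to 1.37 to 2.97 CPM. Every gene of the family lay far above that level. Reads were not filtered by molecular identifiers, so the error in counting molecules is not known. Reads of the 9 genes made up 6.34, 6.86 and 6.82% of the 0 h libraries and 5.75, 6.12 and 4.46% of the 4 h libraries. The groups did not overlap, with a difference of means of -1.23 percentage points (two-sided exact permutation test, p = 0.1, the smallest that 3 against 3 libraries allow). Without flu_4h replicate 3 the difference was -0.74 points, and over all omissions of 1 library it ran from -1.57 to -0.74. Among the 4 h libraries replicate 3 was the lowest for 8 of the 9 genes and replicate 2 the highest for 7. Among the 0 h libraries replicate 1 was the lowest for 8 of the 9 genes and replicate 2 the highest for 6, so libraries of both groups differed across most members. In bulk seedlings, fewer green cells and less transcript per cell cannot be told apart. Leaf genes of carbon fixation (RBCS1A, RBCS1B, RBCS2B, RBCS3B and RCA) summed to between 44395 and 50257 CPM after 0 h. After 4 h they summed to between 33135 and 41024 CPM. Of the 5, 4 were called lower, against 8.18% of all genes tested. The highest, RBCS1A, was not called, with 0 h and 4 h means of 27056 and 26930 CPM (edgeR adjusted p = 0.98). Of 11 root markers, 9 were tested. They summed to between 182 and 317 CPM after 0 h and between 173 and 262 CPM after 4 h. Of the 9, 1 was called lower and 1 higher, against 8.18% and 8.37% of all genes tested. Reads over all libraries ran from 6 for the untested marker BGLU22 to 725 for TIP2;3. The part of tissue make-up in the LHCII values was not tested.

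LHCB1 supplies most of the trimer. Its 5 genes took between 88.7 and 93.0% of the reads of the family in the 0 h libraries and between 95.8 and 96.4% in the 4 h libraries. Summed LHCB1 was measured at 56304, 60112 and 64961 CPM after 0 h and at 54916, 61199 and 42722 CPM after 4 h. The groups overlapped, since replicate 2 of the 4 h group lay above the first pair of 0 h replicates. The log2 fold change of the sum was -0.19 (95% interval -0.45 to 0.07, edgeR adjusted p = 0.339, n = 3 per group).

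The LHCB1 genes lie in 2 clusters. On chromosome 1 of TAIR10.1, LHCB1.2 (CAB3, AT1G29910) spans 10472280 to 10473502 and LHCB1.1 (CAB2, AT1G29920) spans 10474656 to 10475969, both on the minus strand. LHCB1.3 (CAB1, AT1G29930) follows on the plus strand from 10477885 to 10479114, with 1915 bases between its start and that of LHCB1.1. On chromosome 2, LHCB1.5 (LHB1B2, AT2G34420) spans 14522524 to 14523568 on the minus strand and LHCB1.4 (LHB1B1, AT2G34430) spans 14524607 to 14525918 on the plus strand, with 1038 bases between their starts. Each of the 5 has 1 exon. Their coding sequences are 86.7 to 96.4% identical to each other, but their last 300 transcript bases, where MARS-seq reads arise, are 40.5 to 54.2% identical. No stretch of 50 bases in the last 300 of LHCB1.1, LHCB1.3, LHCB1.4 or LHCB1.5 occurred in the RefSeq transcript of another member, and in LHCB1.2 6.4% of such stretches did.

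LHCB1.1 was measured at 3723, 4711 and 4306 CPM after 0 h and at 2337, 3110 and 1564 CPM after 4 h. All 4 h values lay below all 0 h values, and the log2 fold change was -0.86 (standard error 0.17, edgeR adjusted p = 0.000797). LHCB1.2 was measured at 5957, 6961 and 7668 CPM and then at 4432, 5590 and 3077 CPM. Its groups also stayed apart, with replicate 3 of the 4 h group the lowest, and the log2 fold change was -0.65 (standard error 0.16, edgeR adjusted p = 0.00539). Without flu_4h replicate 3 the fall of LHCB1.2 was -0.45 and no longer passed (edgeR adjusted p = 0.056). Over all alternatives its adjusted p ran from 0.000136 to 0.056.

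LHCB1.3, the third gene of the same cluster, was measured at 13958, 13978 and 16447 CPM after 0 h and at 16048, 17335 and 14256 CPM after 4 h. The groups were interleaved, and the log2 fold change was 0.10 (95% interval -0.16 to 0.36, edgeR adjusted p = 0.645). LHCB1.5 had the highest read count of the family, at 24147, 25284 and 27614 CPM after 0 h and 23598, 27285 and 17444 CPM after 4 h. Replicate 2 of the 4 h group lay among the 0 h libraries and the other 4 h replicates lay below them, replicate 3 by the most, at a log2 fold change of -0.17 (95% interval -0.46 to 0.11, edgeR adjusted p = 0.444). LHCB1.4 was measured at 8535, 9180 and 8876 CPM and then at 8506, 7876 and 6400 CPM. Its groups nearly touched without overlapping, at a log2 fold change of -0.22 (95% interval -0.49 to 0.04, edgeR adjusted p = 0.268).

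**Figure D2:**
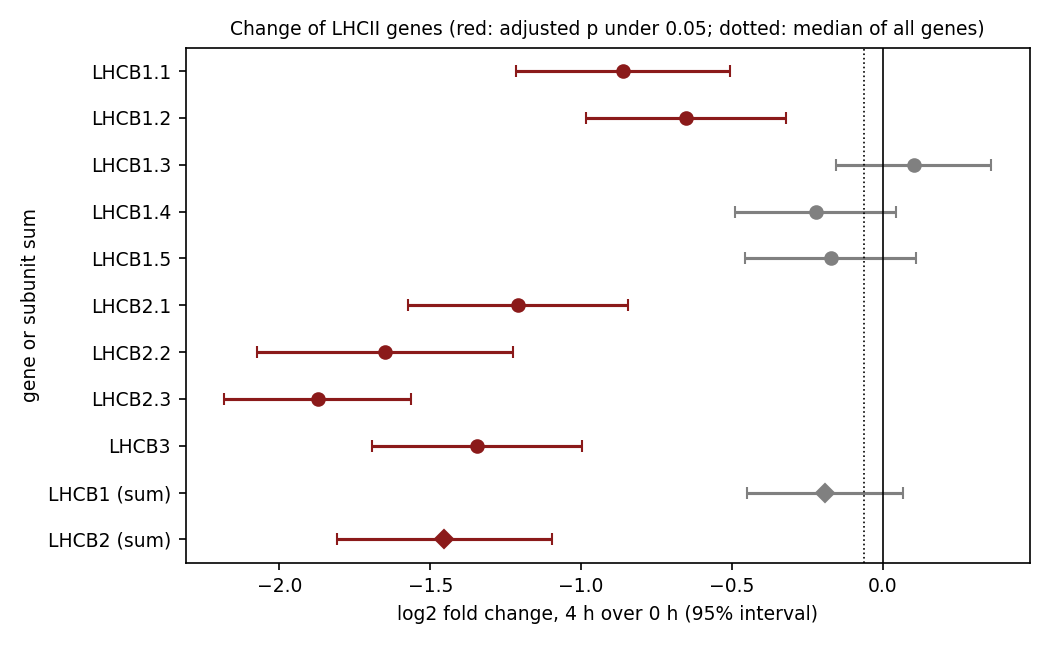
Log2 fold change of each LHCII gene and of the LHCB1 and LHCB2 sums, 4 h over 0 h, with 95% intervals from the edgeR fit (n = 3 per group). Intervals of LHCB1.3, LHCB1.4, LHCB1.5 and the LHCB1 sum include 0, and the other 7 lie below it.

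The 250 bases before the RefSeq start of LHCB1.1 (chr1:10475970-10476219, minus strand) and of LHCB1.3 (chr1:10477635-10477884, plus strand) are shown because the genes face away from each other and LHCB1.1 was called lower while LHCB1.3 was not called, a difference between the pair that was not tested directly. Both read 5′ to 3′ toward the gene, from the TAIR10.1 genome of RefSeq. Capitals mark matches, on either strand, to any of 5 motifs known from light- and clock-regulated plant promoters. These were the G-box CACGTG, the I-box GATAAG, the motif CCAATC recognised by GLK factors, the evening element AAAATATCT and the CCA1 site AAAAATCT.
LHCB1.1: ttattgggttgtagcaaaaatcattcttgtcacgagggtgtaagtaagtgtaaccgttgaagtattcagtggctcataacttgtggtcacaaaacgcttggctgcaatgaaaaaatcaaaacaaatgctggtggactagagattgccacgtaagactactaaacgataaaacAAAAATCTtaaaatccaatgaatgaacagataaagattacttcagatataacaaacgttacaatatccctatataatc
LHCB1.3: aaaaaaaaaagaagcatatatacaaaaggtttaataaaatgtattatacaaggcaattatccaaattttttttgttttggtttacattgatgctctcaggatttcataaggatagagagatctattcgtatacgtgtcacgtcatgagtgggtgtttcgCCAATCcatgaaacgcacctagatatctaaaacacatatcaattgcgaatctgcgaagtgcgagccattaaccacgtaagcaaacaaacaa
The LHCB1.1 window holds 1 CCA1 site, beginning 78 bases before the start, and the LHCB1.3 window holds 1 CCAATC, beginning 91 bases before it. LHCB1.4, which did not pass the test, also holds a CCA1 site, and LHCB1.5 holds a CCAATC 89 bases before its start. The CCA1 letters occur in 6.7% and CCAATC in 10.2% of the 27443 windows of this length before protein-coding nuclear genes. Matches did not overlap each other, LHCB1.2 and LHCB3 held none of the motifs, and the evening element was found in none of the 9 windows and in 2.4% of all windows.

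Shares within LHCB1 describe the same values free of library scaling. LHCB1.3 took 24.8, 23.3 and 25.3% of LHCB1 reads in the 0 h libraries and 29.2, 28.3 and 33.4% in the 4 h libraries. LHCB1.1 went from 6.61, 7.84 and 6.63% to 4.25, 5.08 and 3.66%, and LHCB1.2 from 10.6, 11.6 and 11.8% to 8.07, 9.13 and 7.20%. For these 3 copies the groups did not overlap, and each gave the smallest p that the design allows (two-sided exact permutation test, p = 0.1, adjusted p = 0.2 over the 8 copies of LHCB1 and LHCB2). LHCB1.5 held 42.5 ± 0.409% of LHCB1 reads after 0 h and 42.8 ± 1.89% after 4 h (mean ± SD, n = 3), and LHCB1.4 held 14.7 ± 0.890% and 14.4 ± 1.39%.

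A further fit scaled each library to its LHCB1.5 reads, the copy with the most reads, so that each change was read against that copy. LHCB1.1 fell relative to LHCB1.5 by 0.71 on the log2 scale (95% interval -1.17 to -0.26, edgeR adjusted p = 0.0261). That call was lost without any single 0 h library and without flu_4h replicate 1 (edgeR adjusted p between 0.111 and 0.2), at differences between -0.81 and -0.62 over all 6 omissions. LHCB1.2 differed from LHCB1.5 by -0.49 (95% interval -0.93 to -0.05, edgeR adjusted p = 0.146), and passed only without flu_4h replicate 3 (edgeR adjusted p = 0.0364). LHCB1.3 differed by 0.30 (95% interval -0.10 to 0.71, edgeR adjusted p = 0.377) and LHCB1.4 by -0.03 (95% interval -0.45 to 0.39, edgeR adjusted p = 0.951).

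**Figure D3:**
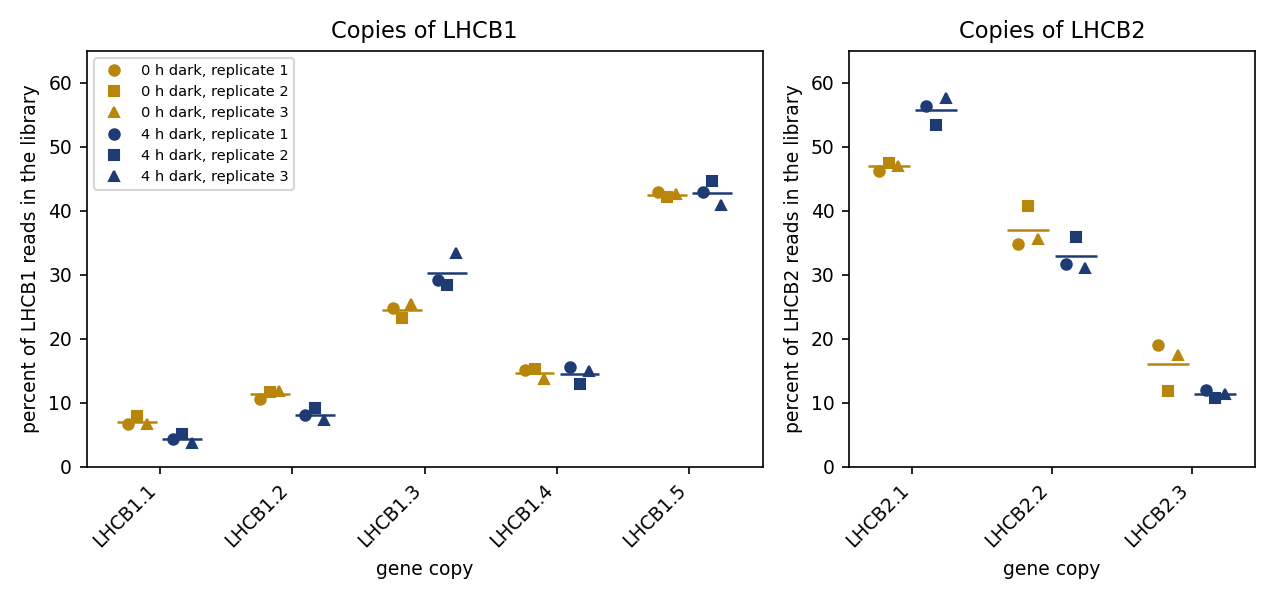
Percent of the reads of LHCB1 (left) and of LHCB2 (right) assigned to each copy in each library, with 0 h in gold, 4 h in blue and a line at the group mean. The share of LHCB1.3 is 23.3 to 25.3% after 0 h and 28.3 to 33.4% after 4 h, and that of LHCB2.1 is 46.3 to 47.4% and 53.4 to 57.6%.

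All 3 LHCB2 genes fell. LHCB2.1 (AT2G05100) spans 1822990 to 1824480 and LHCB2.2 (AT2G05070) spans 1799234 to 1800472 on the minus strand of chromosome 2, and LHCB2.3 (AT3G27690) spans 10255906 to 10257489 on the plus strand of chromosome 3. LHCB2.1 and LHCB2.2 are 96.6% identical in coding sequence and 45.9% in their last 300 transcript bases. Of the stretches of 50 bases in the last 300 of LHCB2.2, 17.9% occurred in another member, so some of its reads could not be assigned to 1 copy, while LHCB2.1 and LHCB2.3 shared none there. The LHCB2 sum does not depend on how reads were split between copies, but would lack any such reads left uncounted. Summed LHCB2 was measured at 3086, 5613 and 3211 CPM after 0 h and at 1394, 1588 and 1368 CPM after 4 h. Every 4 h library lay below every 0 h library, and the log2 fold change was -1.45 (standard error 0.17, edgeR adjusted p = 9.55e-07).

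LHCB2.3 showed the largest fall of the family. It was measured at 586, 666 and 559 CPM after 0 h and at 167, 171 and 156 CPM after 4 h, and replicates within a group were close together. Its log2 fold change was -1.87 (standard error 0.15, edgeR adjusted p = 1.37e-09), a 3.66-fold fall. LHCB2.2 was measured at 1073, 2287 and 1140 CPM and then at 442, 569 and 424 CPM, with a log2 fold change of -1.65 (standard error 0.21, edgeR adjusted p = 2.29e-06). LHCB2.1 was measured at 1428, 2661 and 1510 CPM and then at 785, 848 and 788 CPM, with a log2 fold change of -1.21 (standard error 0.18, edgeR adjusted p = 2.52e-05). In both genes 0 h replicate 2 stood well above the other replicates of its group, a rise that LHCB2.3 did not show to that extent. Without that library LHCB2.1 gave -0.84 and LHCB2.2 gave -1.19, and both still passed.

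No difference between LHCB2 copies passed a test with all libraries. LHCB2.1 held 46.3, 47.4 and 47.1% of LHCB2 reads after 0 h and 56.3, 53.4 and 57.6% after 4 h, with no overlap (two-sided exact permutation test, p = 0.1, adjusted p = 0.2). LHCB2.3 held 19.0, 11.9 and 17.4% after 0 h and 12.0, 10.8 and 11.4% after 4 h. The low 0 h value was again that of replicate 2, and the groups overlapped (two-sided exact permutation test, p = 0.2, adjusted p = 0.32). Scaled to LHCB2.1, LHCB2.3 differed by -0.75 (95% interval -1.47 to -0.03, edgeR adjusted p = 0.0757) and LHCB2.2 by -0.42 (95% interval -1.11 to 0.27, edgeR adjusted p = 0.323). Without flu_0h replicate 2 these differences were -0.93 (edgeR adjusted p = 1.53e-05) and -0.35 (edgeR adjusted p = 0.046), whereas without any other library neither passed. Before adjustment the edgeR p of these 2 were 1.68e-06 and 0.0215. The adjustment ran over all genes read against LHCB2.1, which itself fell. These adjusted p are therefore not comparable with those of fits scaled to another reference.

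The 250 bases before the 3 LHCB2 genes are shown because these genes fell together and share a motif at nearly the same place. The windows are chr2:1824481-1824730 and chr2:1800473-1800722 (minus strand) for LHCB2.1 and LHCB2.2 and chr3:10255656-10255905 (plus strand) for LHCB2.3, with capitals as before.
LHCB2.1: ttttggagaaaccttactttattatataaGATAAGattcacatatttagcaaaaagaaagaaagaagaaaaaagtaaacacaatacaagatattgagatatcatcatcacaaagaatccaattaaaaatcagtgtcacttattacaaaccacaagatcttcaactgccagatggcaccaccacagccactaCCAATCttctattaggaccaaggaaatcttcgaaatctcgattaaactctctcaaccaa
LHCB2.2: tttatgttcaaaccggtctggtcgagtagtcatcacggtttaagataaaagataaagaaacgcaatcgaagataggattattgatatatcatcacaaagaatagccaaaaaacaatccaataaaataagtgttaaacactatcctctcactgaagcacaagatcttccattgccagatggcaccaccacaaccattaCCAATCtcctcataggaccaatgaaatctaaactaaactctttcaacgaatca
LHCB2.3: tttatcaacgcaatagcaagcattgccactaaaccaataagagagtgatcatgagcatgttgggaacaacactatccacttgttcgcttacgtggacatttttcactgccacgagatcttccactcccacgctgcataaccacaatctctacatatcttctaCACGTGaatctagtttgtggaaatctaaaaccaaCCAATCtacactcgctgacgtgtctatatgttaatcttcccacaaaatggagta
Each holds CCAATC, beginning 59, 53 and 54 bases before the start of LHCB2.1, LHCB2.2 and LHCB2.3. The windows of the closely similar copies LHCB2.1 and LHCB2.2 also share a longer run of letters before it, so their matches need not be independent. A link between the motif and the fall was not tested. LHCB2.1 also holds an I-box 221 bases before its start, present in 12.3% of all windows, and LHCB2.3 a G-box 88 bases before its start, present in 6.5% of them. CCAATC was thus found in 5 of the 9 members, of which 3 were called lower and LHCB1.3 and LHCB1.5 were not called.

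LHCB3 (AT5G54270), on the plus strand of chromosome 5 from 22038165 to 22039568 with 3 exons, is 63.1 to 66.2% identical in coding sequence to the other members and shared no stretch of 50 bases with them. It was measured at 1529, 2020 and 1687 CPM after 0 h and at 871, 690 and 491 CPM after 4 h. The groups were clearly apart, and the log2 fold change was -1.35 (standard error 0.17, edgeR adjusted p = 2.36e-06).

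The balance between subunits shifted toward LHCB1. For each LHCB1 read there were 0.0632 LHCB2 reads after 0 h and 0.0276 after 4 h (geometric means), a difference of -1.19 on the log2 scale. For LHCB3 the ratio to LHCB1 went from 0.0287 to 0.0127, a difference of -1.18. Both ratios had no overlap between groups (two-sided exact permutation test, p = 0.1, adjusted p = 0.15 over 3 ratios). In the fit scaled to summed LHCB1, LHCB2 fell relative to LHCB1 by 1.25 (95% interval -1.66 to -0.83, edgeR adjusted p = 2.77e-06) and LHCB3 by 1.16 (95% interval -1.60 to -0.73, edgeR adjusted p = 2.65e-05), and both calls held without each library in turn. The ratio of LHCB3 to LHCB2 was 0.454 after 0 h and 0.460 after 4 h. In the fit scaled to LHCB2 the difference of LHCB3 was 0.04 (95% interval -0.63 to 0.72, edgeR adjusted p = 0.924), so any difference within that interval could not be told from none.

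Among other antenna genes, too, members fell beside members that did not pass. Of 6 genes of the minor photosystem II antenna, which link the trimers to the core, 4 were lower and none higher. Over all genes tested 8.18% were lower and 8.37% higher. The median log2 fold change of the 6 was -0.74. LHCB6 (CP24) fell by 0.97 on the log2 scale (standard error 0.14), LHCB5 (CP26) by 1.21 (standard error 0.23) and LHCB4.2 (CP29) by 0.67 (standard error 0.14), with edgeR adjusted p between 1.46e-05 and 0.00155. LHCB4.3 gave -0.82 (standard error 0.23, edgeR adjusted p = 0.0162), and lost its call without flu_0h replicate 2, where it was -0.43, and with flu_4h replicate 2 or 3 left out (edgeR adjusted p up to 0.242). LHCB7 had a log2 fold change of 0.26 (edgeR adjusted p = 0.612), and LHCB4.1, at a mean of 4359 CPM after 0 h and 4217 CPM after 4 h, one of -0.05 (edgeR adjusted p = 0.854). Against the same shares of all genes tested, 2 of 6 photosystem I antenna genes were lower and none higher, with a median of -0.25. These were LHCA6, which links photosystem I to the NDH complex, at -2.24 (standard error 0.24, edgeR adjusted p = 1.72e-07), and LHCA4 at -0.59 (standard error 0.14, edgeR adjusted p = 0.00321). LHCA1, at -0.28 (edgeR adjusted p = 0.139), and LHCA3, at -0.22 (edgeR adjusted p = 0.267), did not pass, and LHCA5, at 0.10 (edgeR adjusted p = 0.721), pointed the other way.

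Of 5 tested genes that deliver LHC proteins to the thylakoid, 1 was called, against 16.6% of all genes tested called in either direction. The called gene was cpSRP54, a subunit of the chloroplast signal recognition particle, at -0.61 (standard error 0.18, edgeR adjusted p = 0.0173). Leaving out flu_0h replicate 2, flu_4h replicate 1 or flu_4h replicate 2 each ended that call (edgeR adjusted p up to 0.0778). The receptor gene cpFtsY gave -0.54 (edgeR adjusted p = 0.122). The membrane insertase gene ALB3 gave 0.05 (edgeR adjusted p = 0.858) and cpSRP43 0.03 (edgeR adjusted p = 0.923). LTD gave -0.96 (edgeR adjusted p = 0.222), and passed only without flu_4h replicate 3, at -1.79 (edgeR adjusted p = 0.0379). Among genes that modify the trimer, STN7, the kinase that phosphorylates LHCB1 and LHCB2, was measured at 44.0, 42.6 and 54.4 CPM after 0 h and at 27.8, 19.9 and 17.8 CPM after 4 h. It fell by 1.05 (standard error 0.24, edgeR adjusted p = 0.00253). The opposing phosphatase gene TAP38 gave -0.11 (edgeR adjusted p = 0.685) and the kinase gene STN8 -0.23 (edgeR adjusted p = 0.447). PSBS, which is needed for the rapid quenching of excess light energy in the antenna, was measured at 1233, 1251 and 1271 CPM and then at 653, 718 and 764 CPM, a fall of 0.82 (standard error 0.14, edgeR adjusted p = 0.000109). Of the chlorophyll b reductase genes, which start the breakdown of LHCII, NYC1 gave -0.08 (edgeR adjusted p = 0.797) and NOL had 18 reads after 0 h and 4 after 4 h (edgeR adjusted p = 0.177). CAO and SGR1 were not analysed here.

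Of 9 tested regulators of LHCB genes, 5 were higher and 1 lower, against 8.37% and 8.18% of all genes tested. The list median was 1.06. GNL, a GATA factor of chloroplast development, rose by 1.87 (standard error 0.23, edgeR adjusted p = 1.35e-06). CCA1, a clock factor first found by its binding to an LHCB1 promoter, was measured at 20.2, 20.5 and 29.6 CPM after 0 h and at 57.3, 56.9 and 84.0 CPM after 4 h, a rise of 1.49 (standard error 0.23, edgeR adjusted p = 5.44e-05). HY5, a bZIP factor of light signalling, rose by 1.33 (standard error 0.17, edgeR adjusted p = 2.36e-06). The phytochrome-interacting factor gene PIF3 rose by 1.06 (standard error 0.19, edgeR adjusted p = 0.000305). GNC, the remaining gene called higher, rose by 0.89 (standard error 0.18, edgeR adjusted p = 0.00101). GUN1, of plastid-to-nucleus signalling, was the member that fell, by 0.58 (standard error 0.16, edgeR adjusted p = 0.00984), and lost its call without flu_4h replicate 1 or 2 (edgeR adjusted p up to 0.0675). GLK1 and GLK2, activators of antenna genes, gave -0.19 (edgeR adjusted p = 0.51) and 0.16 (edgeR adjusted p = 0.588). LHY, the partner of CCA1, had 1 read after 0 h and 13 after 4 h. Relative to depth this was 15.2 times higher, with an exact (Clopper-Pearson) 95% counting interval of 2.28 to 645, and did not pass (edgeR adjusted p = 0.0528). ABI4 was not analysed here.

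**Figure D4:**
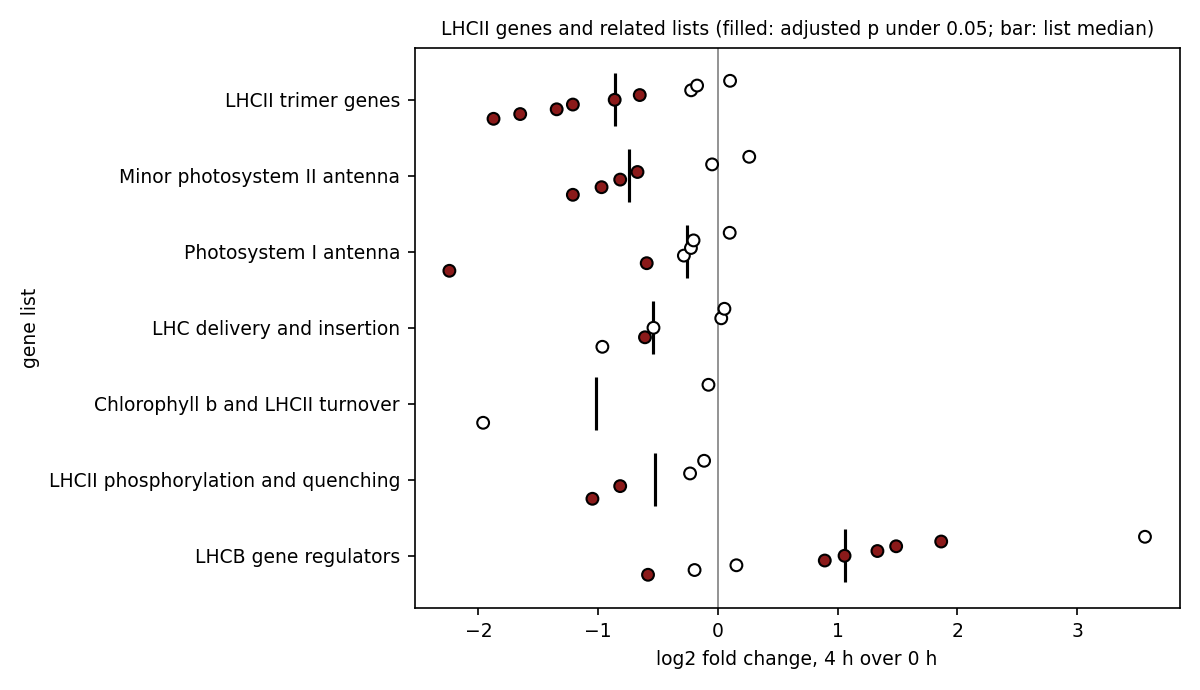
Log2 fold change, 4 h over 0 h, of the LHCII genes and of the tested members of 6 related lists, filled where the edgeR adjusted p is under 0.05, with a bar at the list median. LHCII genes lie between -1.87 and 0.10 and the regulators between -0.58 and 3.57, where the highest point, LHY, rests on 14 reads.

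By Pearson correlation of log2 CPM with the summed level of the 9 genes over the 6 libraries, the closest of 5070 other genes with a mean of at least 20 CPM in a group were LOX3 (r = 0.991), AT3G54440 (r = 0.986), ACHT2 (r = 0.985), AT4G36660 (r = 0.984) and ACO1 (r = 0.981). The libraries share their group and depth across these genes, and the summed level is mostly LHCB1. These are the highest of 5070 correlations over only 6 libraries, and shared regulation was not tested. Reads per library ran from 10 to 43 for LOX3 and from 82 to 247 for ACO1, the most of the 5. None of the 5 passed the edgeR test, at adjusted p between 0.107 and 0.569.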

How the data were processed

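Groups and replicate numbers came from the sample titles. Per the methods of the study, libraries were made by bulk MARS-seq, trimmed with cutadapt, mapped with STAR to an Araport reference and counted with HTSeq. Tools listed in the submitters' processing notes include bcl2fastq 2.17.1.14 and cutadapt 1.8.3. The authors deposited raw counts of reads per gene, without a filter on molecular identifiers. Amplification copies may be included, so the counting interval on reads may be too narrow even for counting error. That interval pools the reads of a group and leaves out variation between libraries. They also deposited a signal, each library's counts over its own size factor, used here only for an alternative scaling, and regularised log2 values, which were not used.

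Genes reaching 5 reads in any library were kept, normalised with TMM factors and tested with edgeR 4.0.16 in R 4.3.3 (quasi-likelihood, group as the only term, Benjamini-Hochberg at 0.05 over all 10622 genes). CPM use TMM-scaled library sizes. For subunits, the rows of LHCB1 and of LHCB2 were replaced by their sums and the table of 10616 rows was refitted. Shares and ratios were compared by exact permutation over 20 splits. The methods give several whole seedlings per biological replicate for other assays but not for the sequenced libraries, and the labels do not say that replicates were separate cultures, so p-values reflect only the variation among these samples. The 9 genes and the lists were chosen with earlier results of these data known. The genes named were all 9 members, and the 4 of lowest p in every related list and those of opposite direction. LHCB4.1, GNC, GLK2 and LHY were named besides. Fits relative to a copy or subunit were added after the data were seen. Their adjusted p depend on the change of the reference across all genes, so they differ in strictness between references. Alternatives were DESeq2 1.42.0, limma-voom (limma 3.58.1), other scalings and filters, thinning to the smallest library, leaving out organelle genes, the replicate number as a block, and leaving out each library. The procedure was tested on simulated data in which every gene had the same spread and no library carried a shift of its own. That test does not cover such shifts. The study's data list assigns this series to a cycloheximide treatment, and its methods give a day and night cycle where the labels give continuous light. The labels, and the protocol's darkness before light where a treatment field words it as exposure to light, were followed. No group was kept 4 h in light, left unlit after darkness or taken from wild-type seedlings. Darkness, the light after it, singlet oxygen made in that light, time in water and time of day therefore cannot be told apart. Positions and sequences are from RefSeq, TAIR10.1. The count table holds no coordinates. Plots used matplotlib 3.10.9 (Python 3.11.15).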

Additional observations from a re-analysis of the deposited data

How the results depend on the processing

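Of the 9 LHCII genes, 6 were called lower under every alternative except without flu_4h replicate 3, where LHCB1.2 did not pass and 5 were called. Over 18 alternatives the log2 fold change of summed LHCB1 ran from -0.29 to -0.06 and never passed, that of summed LHCB2 from -1.61 to -1.10 and that of LHCB3 from -1.56 to -1.16, both always past the threshold (adjusted p up to 0.000146 and 0.000113). Of all genes, 869 were called lower with edgeR and 541 with DESeq2, and leaving out single libraries gave 569 to 723. The cause was not tested.

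Some differences near 0 changed sign without 1 library. ALB3 ran from -0.033 to 0.20 over these omissions and was -0.020 with upper quartile scaling, and NYC1 ran from -0.13 to 0.027. LHCB3 relative to LHCB2 ran from -0.21 to 0.20 in the fit and from -0.20 to 0.20 as a ratio. LHCB1.4 relative to LHCB1.5 ran from -0.092 to 0.072. The difference in share ran from -0.78 to 0.53 percentage points for LHCB1.4 and from -0.60 to 1.28 for LHCB1.5. The cause was not tested.

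With the replicate number as a block, 1979 genes were called in place of 1758, and 6 LHCII genes. Of the regulators of LHCB genes, 6 were then called higher in place of 5, as they were with no filter on low counts. The main fit had no block because the methods of the study describe none. Same-numbered libraries deviated together by r = 0.02, 0.02 and 0.06. The 6 LHCII calls held with libraries thinned to the smallest, but LHY, NOL and LTD rest on few reads. Some called genes also had low counts in the 4 h libraries. LHCB5 had 43, 29 and 20 reads there, LHCA6 25, 17 and 14, and STN7 61, 22 and 18. The exact tests with 3 libraries per group cannot go below p = 0.1, so they could not pass the threshold.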
